A study of Mus musculus with 3 samples.

Results

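The 9 genes described here encode enzymes of the tricarboxylic acid (TCA) cycle: Cs, Idh3a, Idh3b, Idh3g, Ogdh, Sucla2, Suclg1, Fh1 and Mdh2. They were taken by name and not by a cutoff on their values, but earlier results of these data were known when they were chosen. All 9 were among the 32285 genes counted, and all 9 had unique molecular identifiers (UMIs, tags that mark single RNA molecules) in each library. Together they held 51781 of 88101885 UMIs. Single nuclei had been sequenced from the submandibular salivary gland of wild-type mice in 3 groups with 1 library each. The non-irradiated group was labelled as having no treatment. The irradiated saline group was taken 90 days after irradiation by its title and 93 days by the protocol text. The irradiated pilocarpine group was taken at the same times and had received pilocarpine, an agonist of muscarinic acetylcholine receptors, from day 30 to day 90. The radiation dose, the strain, and the number, age and sex of the mice are not stated in the sources used here, and levels of sex-linked genes are given below. Because the non-irradiated group was not labelled as given saline, irradiation and saline cannot be told apart in its comparison.

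The cycle runs in the mitochondrial matrix, where it oxidises the acetyl group of acetyl-CoA and passes electrons to the respiratory chain as NADH and FADH2. Citrate synthase (Cs) joins acetyl-CoA to oxaloacetate. Isocitrate dehydrogenase 3, built from the catalytic subunit Idh3a with Idh3b and Idh3g, forms 2-oxoglutarate, and the 2-oxoglutarate dehydrogenase complex, whose first component is Ogdh, converts it to succinyl-CoA. Both dehydrogenases are stimulated by calcium in the matrix, and muscarinic receptors raise cytosolic calcium in salivary acinar cells when these secrete. Succinyl-CoA ligase then makes a nucleoside triphosphate: Suclg1 is the alpha subunit that all forms share, and Sucla2 is the beta subunit of the ATP-forming enzyme. Fumarase (Fh1) forms malate, and malate dehydrogenase (Mdh2) closes the cycle. Striated duct and ionocyte-type cells of the gland are known for their many mitochondria and active ion transport, whereas acinar cells make and secrete saliva.

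In the GENCODE annotation of GRCm38, Cs lay on the plus strand of chromosome 10 (128337734 to 128362479), Idh3a on the plus strand of chromosome 9 (54586334 to 54604661) and Idh3b on the minus strand of chromosome 2 (130279309 to 130284547). Idh3g lay on the minus strand of chromosome X (73778963 to 73786897), Ogdh on the plus strand of chromosome 11 (6291633 to 6356642) and Sucla2 on the plus strand of chromosome 14 (73525319 to 73596142). Suclg1 lay on the plus strand of chromosome 6 (73248382 to 73276911), Fh1 on the minus strand of chromosome 1 (175600374 to 175625635) and Mdh2 on the plus strand of chromosome 5 (135778480 to 135790398). The genes share no chromosome. Idh3b overlapped Nop56 on the opposite strand and Fh1 overlapped Kmo. Whether the counting used strand is not given in the sources used here, so reads of these pairs cannot be told apart.

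Promoter sequence of 8 of the 9 genes was found in RefSeq (GRCm38.p6), taken as the 250 bases before each annotated start, and Idh3a was not matched. The windows held from 46.8% to 74% G and C, against a median of 52.4% over 32536 windows of the same length. The CCAAT box (letters CCAAT, both strands) was in windows of 4 of the 8 genes, Cs, Idh3b, Ogdh and Fh1, and in 33.8% of all windows. The cyclic AMP response element (TGACGTCA, both strands) was in windows of 2 of the 8, Ogdh and Mdh2, and in 1.56% of all windows. The Mdh2 match lies past the GENCODE start, inside the gene. An E-box (CACGTG, both strands) was found for Ogdh alone, which had 6 windows, and in 6.04% of all. The Ogdh windows with an E-box, and the Sucla2 window, lie inside the gene in GENCODE. A gene counted when any of its windows matched, whereas the percentages are of windows. No match was found in the 8 genes for the motifs of the oestrogen-related receptors (TNAAGGTCA, 1.13% of windows), Nrf1 (0.784%), Yy1 (0.209%) or Ets factors (CCGGAAGT, 2.9%), each on both strands. Nrf1, Yy1 and the oestrogen-related receptors are factors known for control of mitochondrial genes, and a missing match says only that these letters were not in the windows. Of these promoters, Cs and Ogdh show how the matches lie, and Idh3b is the gene whose level differed most between the acinar libraries below. Capitals mark CCAAT, which reads ATTGG where it lies on the other strand, and TGACGTCA. Cs is chr10:128337477-128337726 (plus strand), Ogdh chr11:6291347-6291596 (plus strand) and Idh3b chr2:130284548-130284701 (minus strand), each written 5′ to 3′. For Idh3b only the 154 bases that lie upstream in both annotations are shown, and its CCAAT match lies in the part not shown.

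Cs: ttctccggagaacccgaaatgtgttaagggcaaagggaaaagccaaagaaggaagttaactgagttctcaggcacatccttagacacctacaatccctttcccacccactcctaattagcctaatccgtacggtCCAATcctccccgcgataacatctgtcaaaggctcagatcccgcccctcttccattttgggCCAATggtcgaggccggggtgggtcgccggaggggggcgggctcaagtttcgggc
Ogdh: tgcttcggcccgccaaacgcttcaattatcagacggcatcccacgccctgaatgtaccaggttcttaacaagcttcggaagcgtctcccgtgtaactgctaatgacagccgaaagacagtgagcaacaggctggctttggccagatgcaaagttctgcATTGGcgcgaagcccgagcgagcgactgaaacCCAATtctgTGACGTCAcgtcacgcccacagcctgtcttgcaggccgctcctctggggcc
Idh3b: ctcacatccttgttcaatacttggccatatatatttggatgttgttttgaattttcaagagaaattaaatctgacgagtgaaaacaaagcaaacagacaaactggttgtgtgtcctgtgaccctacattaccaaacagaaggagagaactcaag

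The barcodes used had at least 500 detected genes and at most 5% mitochondrial UMIs, which left 27633 nuclei: 10635 from the non-irradiated, 8622 from the saline and 8376 from the pilocarpine library. Median depth per nucleus was 1536, 2113 and 2048 UMIs. Between 24 and 26 of these barcode sequences were shared by any pair of libraries. Of 23 clusters, 18 were named from marker genes and 5 were left unnamed, which held 16.2%, 14.4% and 10.4% of the nuclei of the 3 libraries, and the names may differ from the study's own. The unnamed clusters held a larger share of the UMIs than of the nuclei. Among them, cluster 10 had a median of 9687.5 UMIs per nucleus and cluster 8 a median of 3037. The values by class below leave these clusters out. In every class with values below, the acinar markers were present: summed over 9 genes that include the abundant Mucl2, they reached 19700 to 63300 CPM outside acinar-like nuclei against 57300 to 67600 CPM within them. CPM is the usual unit of a gene's UMIs relative to all UMIs of the same nuclei. Over all nuclei, Xist had 1090, 1130 and 1180 CPM in the non-irradiated, saline and pilocarpine libraries. The Y-linked genes Ddx3y, Kdm5d, Uty and Eif2s3y had at most 0.274 CPM in any library. This is the pattern of female nuclei in all 3 libraries. With 1 library per group no difference could be tested: the 95% intervals are exact and cover counting error only, and none of the ratios below has a replicate check.

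The 9 genes together were highest in the granular or striated duct-like nuclei of each library. Their summed level there was 903 CPM in the non-irradiated library (95% interval 843 to 966), 890 in the saline library (857 to 924) and 916 in the pilocarpine library (834 to 1000). Ionocyte-like nuclei, named for Foxi1 and Ascl3, came next in each library with 707 (653 to 765), 809 (768 to 852) and 671 (610 to 737) CPM. Acinar-like nuclei had 514 (501 to 528), 493 (480 to 506) and 552 CPM (539 to 565). Fibroblast-like nuclei (428, 391 and 497 CPM) and myoepithelial-like nuclei (401, 413 and 443 CPM) were the lowest pair in all 3 libraries. Cycling (576, 496 and 599 CPM), macrophage-like (544, 635 and 514 CPM) and endothelial-like nuclei (477, 488 and 533 CPM) lay between. In the pilocarpine library every pair of neighbours from ionocyte-like nuclei down to myoepithelial-like nuclei had overlapping intervals, so their order was not settled there. Ionocyte-like nuclei, for example, overlapped cycling nuclei (533 to 671 CPM). Duct-like and ionocyte-like nuclei were apart from each other in the non-irradiated, saline and pilocarpine libraries. The clusters were made from the same nuclei, so these levels by class are a description, although the 9 genes were left out of the genes used to cluster.

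**Figure D1:**
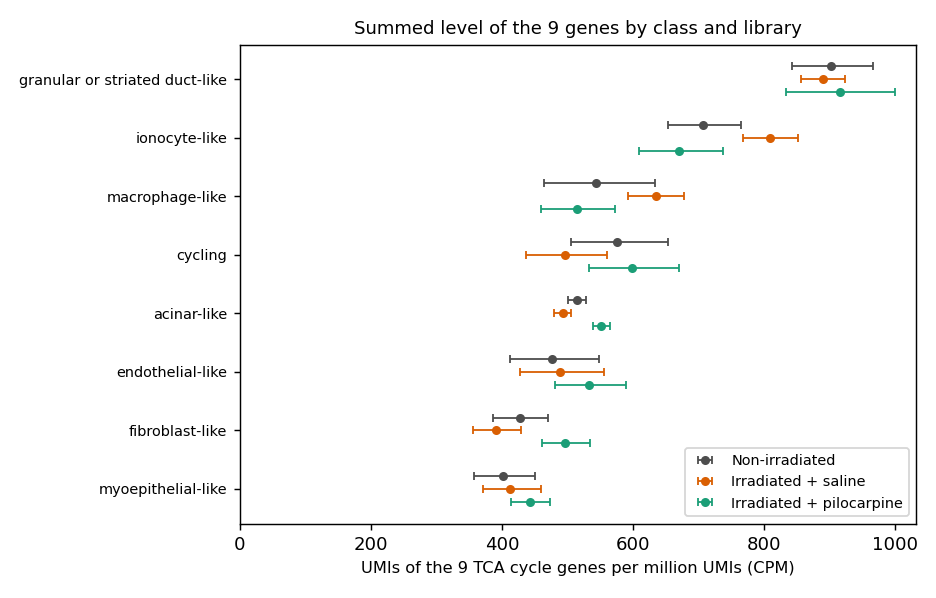
Summed level of the 9 genes (horizontal axis, CPM) in 8 classes of nuclei (rows). Points are single libraries and bars are exact 95% Poisson intervals for counting error. Duct-like nuclei lie at 890 to 916 CPM in every library, to the right of all other classes, and acinar-like nuclei at 493 to 552 CPM.

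The duct-like nuclei differed from the acinar-like nuclei gene by gene. The summed level was 1.76 times the acinar level in the non-irradiated library (1.63 to 1.89), 1.80 times in the saline library (1.72 to 1.89) and 1.66 times in the pilocarpine library (1.51 to 1.82). Idh3a, the catalytic subunit, was 2.47 to 3.18 times higher in duct-like nuclei over the 3 libraries. Suclg1 was 2.25 to 2.51 times higher and Fh1 2.32 to 2.65 times higher. Ogdh (1.65 to 1.97), Idh3g (1.67 to 1.92), Cs (1.37 to 1.44), Idh3b (1.3 to 1.99) and Mdh2 (1.63 to 3.43) were also above 1 in every library. Sucla2 was the exception, at 0.973 to 1.44 and above 1 in 2 of the 3 libraries. Of the succinyl-CoA ligase subunits, Suclg1 thus had the larger ratio in each library. In ionocyte-like nuclei the ratio to acinar-like nuclei was again large for Idh3a, at 2.41 to 3.05, whereas for Suclg1 it was 1.06 to 1.68. For Fh1 in ionocyte-like nuclei it ran from 0.782 in the pilocarpine library to 2.33. The share of all genes above 1 was not counted for either class, so these ratios have no background to compare with. Acinar markers summed to 57300, 67600 and 65000 CPM in acinar-like nuclei of the non-irradiated, saline and pilocarpine libraries. In duct-like nuclei they summed to 36400, 19700 and 63300 CPM, and their part in the ratios was not tested.

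**Figure D2:**
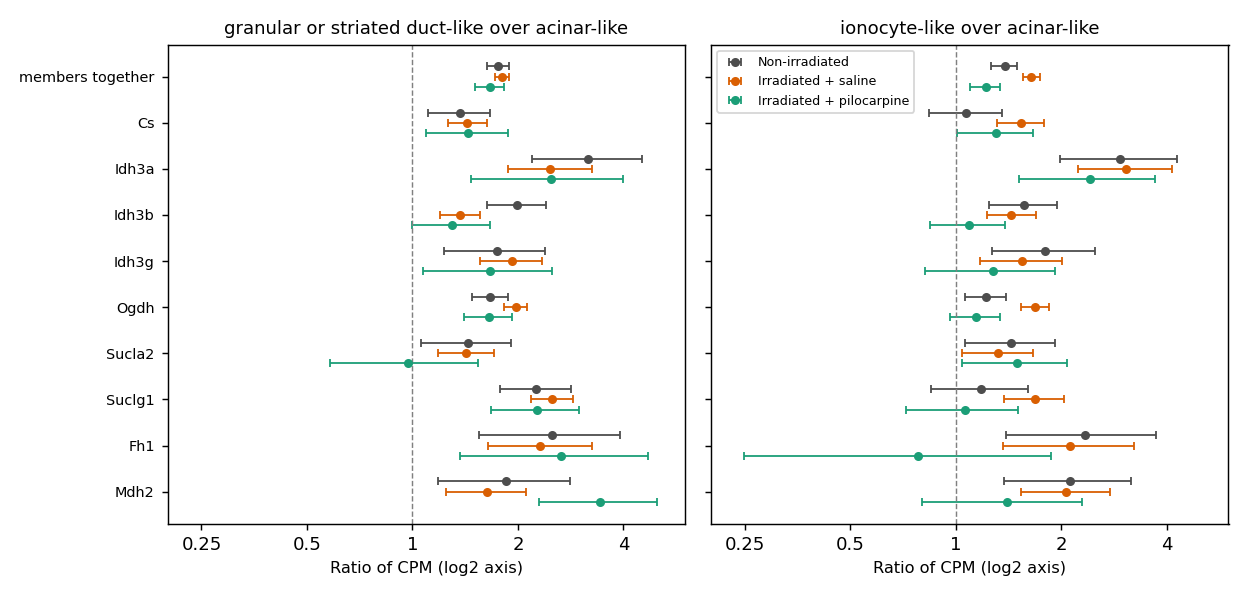
Ratio of the level (CPM) in duct-like (left) or ionocyte-like (right) nuclei to that in acinar-like nuclei of the same library, on a log2 axis, for the 9 genes together and each gene. Points are libraries and bars are exact 95% intervals for counting error. Idh3a lies at 2.47 to 3.18 on the left and 2.41 to 3.05 on the right, and Sucla2 on the left lies at 0.973 to 1.44.

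In acinar-like nuclei of the saline library, the 9 genes together were near their level in the non-irradiated library. The ratio of saline to non-irradiated was 0.959 (0.924 to 0.995), from 5380 and 5990 UMIs. Of the 9 genes, 3 were higher and 6 lower, and 0 lay past 1.5-fold, where 44.5% of 11943 genes were higher, 6.26% past 1.5-fold higher and 6.04% past it lower (genes with at least 50 UMIs in the pair, here all 9). The median log2 ratio of CPM + 1 was -0.09 for the 9 genes and -0.03 for all genes. Acinar nuclei of the saline library had more UMIs in all (median 2502 against 1526), and the 9 genes gave 1.53 UMIs per nucleus against 0.942. The direction did not hold when an estimate of free RNA was subtracted, which gave a log2 ratio of 0.40 in place of -0.06. This estimate was the lowest level over immune, endothelial and fibroblast classes. It also removes what these classes express themselves, a part that was not measured, here and wherever the estimate is used below. The acinar clusters also differed between these libraries: cluster 0 held 41.5% of acinar-like nuclei in the saline library and 5.03% in the non-irradiated one, and cluster 1 held 5.15% and 44.5%. Over all nuclei, unnamed clusters included, the sum was 601 CPM in the saline and 577 in the non-irradiated library. There 7 of the 9 were higher and 2 lower, with 0 past 1.5-fold (58.1% of 15725 genes higher).

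Acinar-like nuclei of the pilocarpine library had a slightly higher level than those of the saline library, and Idh3b and Idh3a had the largest ratios of the 9 genes. The summed ratio was 1.12 (1.08 to 1.16), from 6933 and 5380 UMIs. In the main setting all 9 genes were higher and 0 were past 1.5-fold, where 2.9% of 12055 genes were past it higher and 2.07% lower. The count of 9 did not hold in 8 of the 12 alternative settings. It was 8 of 9 with TMM or median-of-ratios scaling (without Sucla2), a minimum of 200 genes (Mdh2), thinning (Suclg1) or equal weight to clusters (Idh3a). It was 7 with a minimum of 1000 genes (without Mdh2 and Suclg1) and 6 with the cluster of acinar and duct markers added (Ogdh, Sucla2 and Suclg1). After free RNA subtraction 5 genes had a value, and 3 of them were higher. The median log2 ratio was 0.13 for the 9 genes against 0.05 for all genes, of which 61.1% were higher. After subtraction of the free RNA estimate the summed log2 ratio was -0.26 in place of 0.16. Over all nuclei, unnamed clusters included, the direction was the opposite, with a sum of 584 CPM in the pilocarpine and 601 in the saline library. There 2 of the 9 were higher and 7 lower, with 0 past 1.5-fold (56% of 16190 genes higher). The median log2 ratio over all nuclei was -0.08 for the 9 genes and 0.03 for all genes. The part of class shares in this was not tested. In acinar-like nuclei the summed ratio against the non-irradiated library was 1.07 (1.04 to 1.11). There 5 genes were higher and 4 lower, and 1, Idh3b, was past 1.5-fold higher (52.7% of 12129 genes higher, 7.46% past 1.5-fold higher, 4.2% past it lower). The median log2 ratio was 0.15 for the 9 genes and 0.02 for all genes. The saline and the non-irradiated library each served in 2 of the 3 comparisons.

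Citrate synthase had 84.3, 75.7 and 82.7 CPM in acinar-like nuclei of the non-irradiated, saline and pilocarpine libraries. The saline library was the lowest, at 0.899 of the non-irradiated level (0.818 to 0.987), a direction that turned after free RNA subtraction (log2 ratio 1.06). The pilocarpine library was at 1.09 times the saline level (0.996 to 1.2). Cs was lower in the saline than in the non-irradiated library in 7 of 8 classes. These classes come from the same pair of libraries, and the share of all genes lower in as many classes was not counted.

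Idh3b, a regulatory partner of the catalytic subunit, had 66.1 CPM (61.5 to 71), 75.8 CPM (70.7 to 81.1) and 101 CPM (95.1 to 106) in acinar-like nuclei. The pilocarpine library was highest and its interval stood apart, while those of the other 2 libraries overlapped. The ratio was 1.15 for saline to non-irradiated (1.04 to 1.27), 1.33 for pilocarpine to saline (1.21 to 1.45) and 1.52 for pilocarpine to non-irradiated (1.39 to 1.67). These rest on 770, 827 and 1263 UMIs. Over the alternative settings the last ratio ran from 1.39 to 1.7, so it fell under 1.5 in some of them. Nop56, the antisense neighbour, had 43.6, 41.9 and 44.5 CPM in the same nuclei and a pilocarpine to non-irradiated ratio of 1.02 (0.903 to 1.15).

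The other subunits had ratios nearer 1. Idh3a had 13.6, 11.9 and 15.1 CPM in acinar-like nuclei, with ratios of 0.878 (0.691 to 1.11) for saline to non-irradiated and 1.27 (1.01 to 1.6) for pilocarpine to saline. Idh3g had 26.7, 25 and 29.7 CPM, with ratios of 0.937 (0.793 to 1.11) and 1.19 (1.01 to 1.39). After free RNA subtraction the saline to non-irradiated ratios turned, to 7.8 for Idh3a and 2.01 for Idh3g. The 7.8 rests on a small remainder. In the non-irradiated library, fibroblast-like nuclei, a class used for the estimate, had Idh3a at 12.6 CPM from 12 UMIs, against 13.6 CPM in acinar-like nuclei. In the main setting Idh3a and Idh3g were lowest in the saline library, unlike Idh3b. Their pilocarpine to non-irradiated ratios were 1.11 each (0.898 to 1.39 for Idh3a and 0.954 to 1.3 for Idh3g). These intervals and those for saline to non-irradiated hold 1. The order of the 3 libraries was therefore not settled for Idh3a and Idh3g, nor was a difference in order from Idh3b.

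Ogdh, which gave the most UMIs of the 9 genes, had 215, 197 and 210 CPM in acinar-like nuclei. The saline library was at 0.913 of the non-irradiated level (0.861 to 0.968) and the pilocarpine library at 1.07 times the saline level (1.01 to 1.13). Free RNA subtraction turned both directions, to log2 ratios of 0.30 and -0.62. The pilocarpine to non-irradiated ratio was 0.974.

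The succinyl-CoA ligase subunits differed little between acinar libraries. Sucla2 had 40.5, 38.0 and 38.7 CPM, and Suclg1 had 42.6, 44.6 and 47.4 CPM. For Suclg1 the saline to non-irradiated ratio was 1.05 (0.923 to 1.19), and the pilocarpine to saline ratio was 1.06 (0.94 to 1.2). Suclg1 was higher in the saline than in the non-irradiated library in 8 of 8 classes. The ratio ran from 1.05 in acinar-like (0.941 with equal weight to clusters) to 2 in cycling nuclei, where it rested on 32 and 13 UMIs. By cluster it was above 1 in 12 of 15, with a lowest ratio of 0.764. All classes come from the same pair of libraries, and the share of all genes higher in 8 of 8 classes was not counted.

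Fh1 and Mdh2, the last enzymes of the cycle, were the least deeply measured with Idh3a. Fh1 had 10.3, 8.16 and 9.71 CPM, with a saline to non-irradiated ratio of 0.792 (0.595 to 1.05) and a pilocarpine to saline ratio of 1.19 (0.899 to 1.58). Mdh2 had 15.1, 17.3 and 18.5 CPM, with ratios of 1.15 (0.928 to 1.42) and 1.07 (0.876 to 1.3). Over the alternative settings these ran from 0.744 to 1.53 and from 0.908 to 1.18. The intervals of all 4 ratios hold 1, so no difference was detectable at this depth. Mdh2 was highest in the pilocarpine library, at 1.22 times the non-irradiated level (1 to 1.49).

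**Figure D3:**
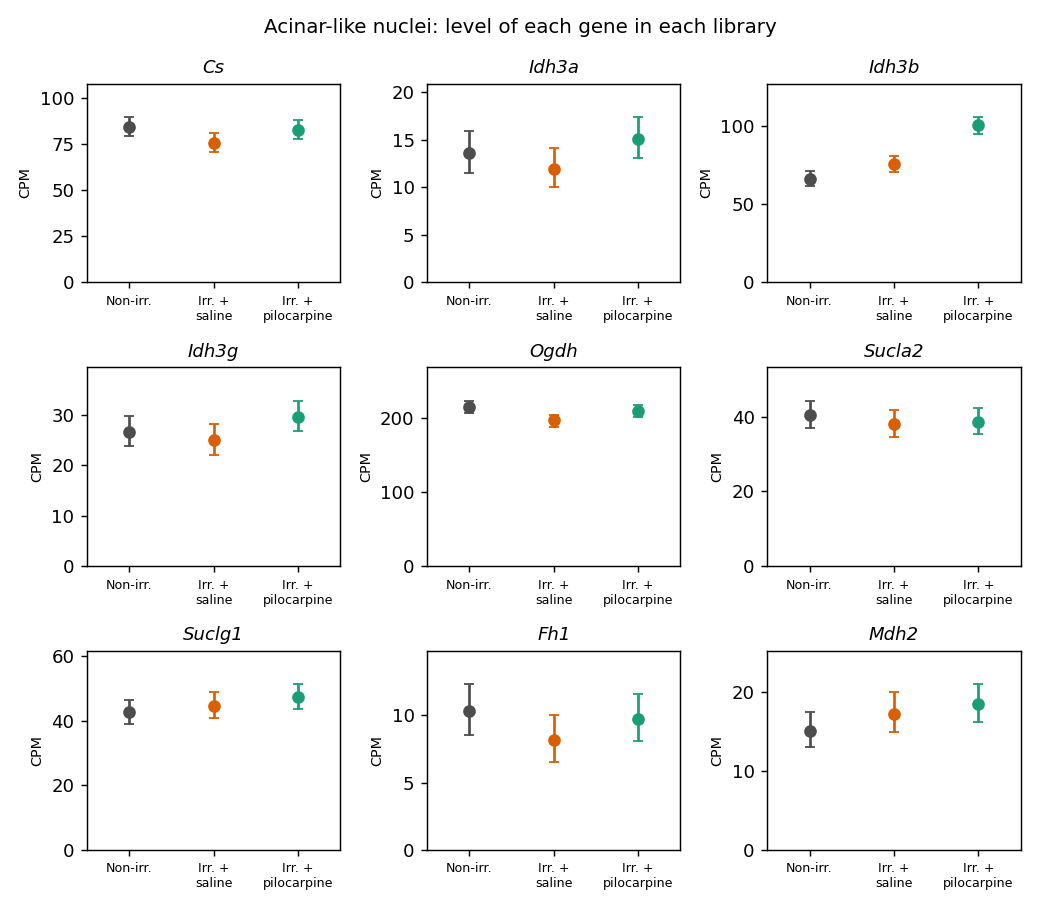
Level of each of the 9 genes (vertical axis, CPM, from 0) in acinar-like nuclei of the 3 libraries, with 1 point per library and exact 95% Poisson intervals. Idh3b steps from 66.1 to 75.8 to 101 CPM, whereas Cs and Ogdh are lowest in the saline library.

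Within single acinar clusters the pilocarpine to saline ratio of the 9 genes together was 1.11 in cluster 0 (1.05 to 1.17), 1.16 in cluster 4 (1.09 to 1.23), 1.1 in cluster 2 (0.989 to 1.22) and 1.29 in cluster 9 (1.01 to 1.66). It was 1.01 in cluster 1. For Idh3b the pilocarpine to non-irradiated ratio was 1.8 in cluster 0 (1.31 to 2.52), 1.36 in cluster 1 (1.03 to 1.77), 1.7 in cluster 2 (1.2 to 2.47) and 1.69 in cluster 9 (1.15 to 2.41). In cluster 4 it was 2.18 (0.993 to 5.99), from 6 UMIs in the non-irradiated library. The ratio was above 1 in each of these 5 clusters. They come from the same pair of libraries, and the share of all genes above 1 in as many was not counted. Cluster 7, also acinar-like, was left out because its 47 nuclei in the saline library were under the minimum for levels. It held 20.9% of acinar-like nuclei in the non-irradiated library.

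Across classes, Idh3b was higher in the pilocarpine than in the non-irradiated library in 7 of 8. The classes come from the same pair of libraries, and the share of all genes higher in as many was not counted. The ratios ran from 0.995 in duct-like to 1.83 in fibroblast-like nuclei (1.31 to 2.61). The duct-like value ran from 0.659 to 1.56 over the alternative settings, so its side of 1 was not settled. In fibroblast-like nuclei Idh3b had 49.4, 66.7 and 90.6 CPM in the non-irradiated, saline and pilocarpine libraries. Ionocyte-like nuclei had 103, 110 and 109 CPM, with a ratio of 1.06 (0.769 to 1.47). Against the saline library, Idh3b was higher in 6 of 8 classes, from 0.952 in macrophage-like to 1.81 in cycling nuclei. Acinar markers were also higher in the pilocarpine than in the saline library in all 7 classes other than acinar-like, and their part in the Idh3b ratios was not tested.

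**Figure D4:**
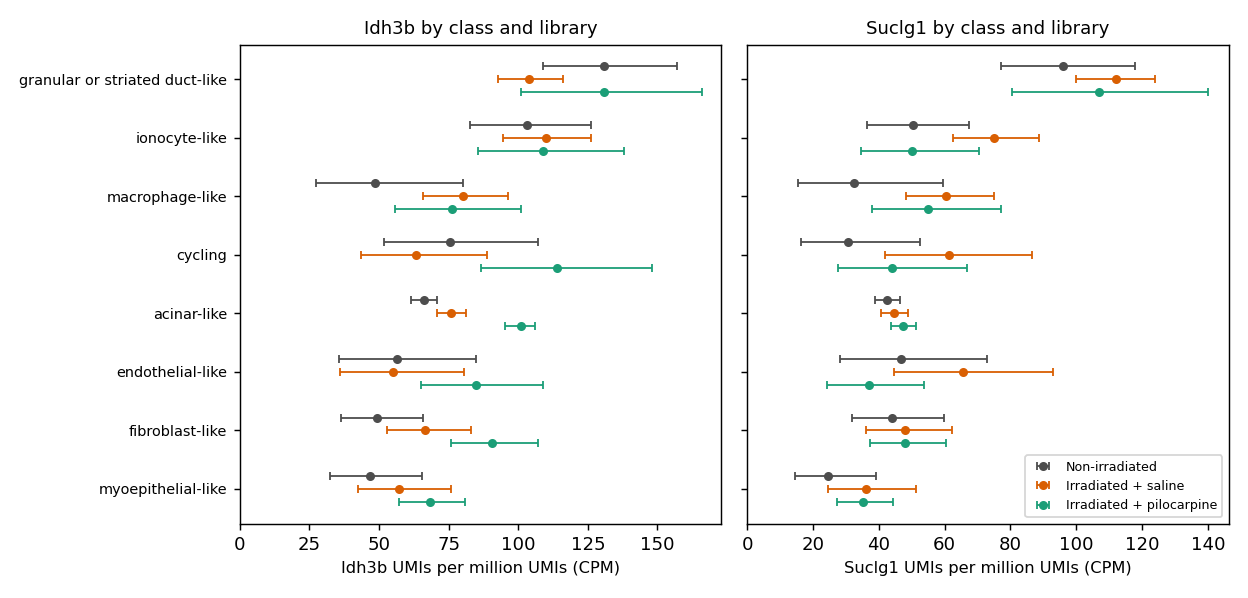
Level of Idh3b (left) and Suclg1 (right) in CPM in 8 classes of nuclei (rows), with 1 point per library and exact 95% Poisson intervals. Idh3b is highest in the pilocarpine library in acinar-like, fibroblast-like, myoepithelial-like, cycling and endothelial-like nuclei, and not in the other rows. Suclg1 is above its non-irradiated level in the saline library in all 8 rows.

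In duct-like nuclei the 9 genes together did not differ between libraries beyond counting error. The ratios were 0.985 for saline to non-irradiated (0.912 to 1.07), 1.03 for pilocarpine to saline (0.93 to 1.14) and 1.01 for pilocarpine to non-irradiated (0.903 to 1.14). For saline to non-irradiated, 4 genes were higher and 5 lower with 0 past 1.5-fold (44.4% of 8409 genes higher, 6.96% past 1.5-fold higher, 7.9% past it lower), and the medians were -0.09 for the 9 genes and -0.05 for all genes. Idh3b was lower in the saline library, with 131, 104 and 131 CPM in the 3 libraries and a ratio of 0.79 (0.639 to 0.981). Its antisense neighbour Nop56 had 42, 25 and 45.6 CPM there, with a ratio of 0.595 (0.4 to 0.897). Suclg1 had 95.9, 112 and 107 CPM and Ogdh 359, 387 and 345 CPM.

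Mdh2 stood apart in duct-like nuclei of the pilocarpine library. Its level was 28.0, 28.2 and 63.4 CPM, from 26, 88 and 32 UMIs. The ratio was 2.25 for pilocarpine to saline (1.45 to 3.41), the single gene of the 9 past 1.5-fold (8.17% of 8033 genes past it higher, 9.06% lower). In that pair 6 of the 9 were higher, where 47.0% of all genes were, and the count ran from 4 to 7 over the alternative settings. Over the alternative settings this ratio ran from 1.71 to 3.49, and that to the non-irradiated library from 1.14 to 4.75. Sucla2 had 58.2, 54.2 and 37.7 CPM, with its lowest value in the pilocarpine library. Of the 8 genes with at least 50 UMIs in the pilocarpine and non-irradiated pair (Fh1 had fewer), Mdh2 was past 1.5-fold higher and Sucla2 past it lower, at 0.647 (0.362 to 1.11), where 4.62% of 5064 genes were higher and 8.91% lower. The median log2 ratios were 0.13 against -0.02 for all genes (pilocarpine to saline) and 0.02 against -0.09 (pilocarpine to non-irradiated). The duct-like nuclei of the pilocarpine library, 348 against 661 and 1642, had acinar markers at 63300 CPM (9 of 9 detected), against 36400 and 19700, and their part in these values was not tested.

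In fibroblast-like nuclei, which make matrix around the acini and ducts, the pilocarpine library had a higher sum than the saline library. The ratio was 1.27 (1.13 to 1.43) and that to the non-irradiated library 1.16 (1.03 to 1.32), with 0.915 (0.799 to 1.05) for saline to non-irradiated. Ogdh had 147, 113 and 155 CPM there, with a pilocarpine to saline ratio of 1.38 (1.11 to 1.72). Of the 9 genes, 6 had at least 50 UMIs in each pair. For saline to non-irradiated, 3 were higher and 3 lower, 0 past 1.5-fold (49.1% of 6911 genes higher, 10.6% past 1.5-fold higher, 12.2% past it lower). For pilocarpine to saline, all 6 were higher and 0 past 1.5-fold (51.3% of 7855 genes higher, 10.4% past 1.5-fold higher, 5.93% past it lower), and the median log2 ratio was 0.36 against 0.01 for all genes. For pilocarpine to non-irradiated, 5 were higher and 1, Idh3b, was past 1.5-fold (47.3% of 7482 genes higher, 8.19% past 1.5-fold higher, 5.44% past it lower). Acinar markers in the same nuclei summed to 41300, 28400 and 46500 CPM, the same order of libraries as the sum of the 9 genes, and their part was not tested.

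The contractile cells that wrap the acini, here the myoepithelial-like nuclei, had summed ratios near 1. These were 1.03 (0.88 to 1.21) for saline to non-irradiated, 1.07 (0.947 to 1.22) for pilocarpine to saline and 1.1 (0.967 to 1.27) for pilocarpine to non-irradiated. For saline to non-irradiated, 4 of the 9 genes had at least 50 UMIs and 3 of them were higher, 0 past 1.5-fold (51.7% of 5530 genes higher, 7.5% past 1.5-fold higher, 7.87% past it lower). For pilocarpine to saline, 4 of 7 were higher and 0 past 1.5-fold (49.5% of 7769 genes higher, 9.49% past 1.5-fold higher, 4.94% past it lower). For pilocarpine to non-irradiated, 5 of 7 were higher, and Idh3g was past 1.5-fold at 1.67 (0.797 to 3.9) from 41 and 9 UMIs (52.3% of 7544 genes higher, 9.44% past 1.5-fold higher, 3.79% past it lower). Idh3b had 46.7, 57.2 and 68.3 CPM in the 3 libraries.

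Ionocyte-like and macrophage-like nuclei had their highest sum in the saline library. In ionocyte-like nuclei the saline to non-irradiated ratio was 1.14 (1.04 to 1.26), and the pilocarpine to saline ratio was 0.829 (0.744 to 0.923). Ogdh had 262, 331 and 238 CPM there. In macrophage-like nuclei the sum was 544, 635 and 514 CPM, with a pilocarpine to saline ratio of 0.809 (0.71 to 0.921). Markers of granular or striated duct cells were also highest in the saline library in both classes: 4360, 8150 and 2980 CPM in ionocyte-like and 4020, 9920 and 3390 CPM in macrophage-like nuclei, with 11 or 12 of 12 markers detected. Their part in these sums was not tested.

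Other genes of the pathway were described in acinar-like nuclei from 4 lists. The first held 8 other genes of the cycle, among them Dlst and Dld of the 2-oxoglutarate complex and the subunits of succinate dehydrogenase (Sdha, Sdhb, Sdhc and Sdhd). For saline to non-irradiated, 4 of these 8 were higher and 4 lower, where 44.5% of all genes were higher. Dlst, the partner of Ogdh, had 68.4 against 80.4 CPM, a ratio of 0.851 (0.772 to 0.937), and Ogdh was lower as well. For pilocarpine to saline, 6 of 8 were higher, where 61.1% of all genes were. Of the 13 genes of pyruvate entry, 6 were higher and 7 lower for saline to non-irradiated and 9 higher and 4 lower for pilocarpine to saline. Pdk3, a kinase that inhibits pyruvate dehydrogenase, was past 1.5-fold lower in the saline library, at 11.5 against 19.7 CPM and a ratio of 0.583 (0.465 to 0.728), as were 6.04% of all genes. Pdk1, another such kinase, had 44.0 CPM in the pilocarpine and 33.6 in the saline library, a ratio of 1.31 (1.14 to 1.5).

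Enzymes and carriers outside the cycle that share its metabolites numbered 17 with enough UMIs, of 18. For saline to non-irradiated, 8 were higher and 9 lower, where 44.5% of all genes were higher. Me3, a mitochondrial malic enzyme, was past 1.5-fold lower, at 6.78 against 12.5 CPM and a ratio of 0.541 (0.403 to 0.72), as were 6.04% of all genes. Of the same list, 1 gene was past 1.5-fold higher, as were 6.26% of all genes. For pilocarpine to saline, 11 were higher and 6 lower, where 61.1% of all genes were higher. Idh2, the NADP-dependent isocitrate dehydrogenase of mitochondria, had 117 against 96.1 CPM, a ratio of 1.22 (1.13 to 1.32). Of 11 measured genes of mitochondrial calcium entry and exchange, 2 were higher and 9 lower for saline to non-irradiated, where 44.5% of all genes were higher. The median log2 ratio was -0.14 against -0.03 for all genes. Slc8b1, the mitochondrial sodium-calcium exchanger, was past 1.5-fold lower, at 19.1 against 29.3 CPM and a ratio of 0.651 (0.545 to 0.776), as were 6.04% of all genes. For pilocarpine to saline, 9 were higher and 2 lower (61.1% of all genes higher), and Slc8b1 had a ratio of 1.24 (1.03 to 1.48). For pilocarpine to non-irradiated, Mpc2, part of the pyruvate carrier, had a ratio of 1.31 (1.18 to 1.47) and Got2, the mitochondrial aspartate aminotransferase, 1.45 (1.23 to 1.72).

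Over 52 points, each a cluster in 1 library with at least 50 nuclei, the level of each gene was compared with the sum of the other 8 on the log2(CPM + 1) scale. Points of a library share its preparation and depth. Pearson's r was 0.737 for Ogdh, 0.645 for Idh3b, 0.533 for Fh1, 0.510 for Mdh2 and 0.506 for Cs. It was 0.480 for Suclg1, 0.479 for Idh3a, 0.452 for Idh3g and 0.228 for Sucla2, the gene least like the rest. The correlation of the sum with log2 median depth was 0.157. Among 6405 other genes, the most alike to the sum were Pank1 (0.887), a pantothenate kinase of coenzyme A synthesis, Snhg4 (0.870), Ccdc141 (0.867), Simc1 (0.866) and Atp5c1 (0.863), the gamma subunit of ATP synthase.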

How the data were processed

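Single-nucleus RNA was counted in 3 libraries, 1 per group, from nuclei isolated from fresh frozen submandibular glands, stained with DAPI and sorted, and sequenced with 10x Genomics 3′ v3.1 chemistry, per the labels' protocols. The authors deposited raw UMI counts per gene and barcode, without normalization. Cell Ranger 7.0.1 and GRCm38 are named in the submitters' processing notes. Whether intronic reads were counted is not given in the sources used here, and levels were not compared between genes.

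Kept barcodes had 500 or more genes and no more than 5% of UMIs from mitochondrial genes: 10635, 8622 and 8376 nuclei with 25566617, 29177212 and 33358056 UMIs. Nuclei of all libraries were clustered in scanpy 1.11.5 (3000 variable genes, without the 9 genes and the pathway lists, 30 components, 15 neighbours, Leiden resolution 1 with leidenalg 0.10.2). A cluster was named when the median level of its markers reached 0.65 of that in the highest cluster, with at least 3 markers detected and no more markers of another class among its 10 leading genes. A cluster in which a second class also reached 0.65 stayed unnamed unless it was itself the highest cluster for its first class, a rule set after the clusters were seen. Under it the cycling cluster (acinar markers at 0.819 of their highest level) and the macrophage-like cluster (B or plasma cell markers at 0.699) kept their names. Scrublet called 0 doublets in every library, so the caller did not work and doublets were left in.

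UMIs were summed per class and library, as CPM with exact Poisson intervals and as ratios with exact conditional binomial intervals at 95%. The interval computation was tested on simulated data. A gene counted as past 1.5-fold at a ratio of at least 1.5 in either direction, with at least 50 UMIs in the pair. Levels are given where every library had 50 or more nuclei of a class, and counts of genes where every library had 300 or more. Medians use log2 of CPM + 1. The genes named are the 9 genes, and from each pathway list the gene whose interval lay farthest from no change in acinar-like nuclei, and the 5 genes most alike; some results under this rule are not reported here. The members, the lists and the marker level were chosen with earlier results of these data known. Alternatives covered filters, scaling (edgeR 4.0.16 TMM factors, median of ratios), thinning to 800 UMIs, weighting, clustering, doublet scores and free RNA.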

Additional observations from a re-analysis of the deposited data

Results flagged for a closer look

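Some ratios lay on opposite sides of 1 in different classes for the same pair of libraries, with intervals that did not hold 1 on either side. The differences between classes were not tested, since each group has 1 library.

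For the 9 genes together, the pilocarpine to saline ratio was 1.12 in acinar-like, 1.21 in cycling and 1.27 in fibroblast-like nuclei, and 0.829 in ionocyte-like and 0.809 in macrophage-like nuclei. The saline to non-irradiated ratio of the 9 genes was 1.14 in ionocyte-like and 0.959 in acinar-like nuclei. Ogdh had a pilocarpine to saline ratio of 1.07 in acinar-like, 1.38 in fibroblast-like and 0.721 in ionocyte-like nuclei. Its saline to non-irradiated ratio was 0.913 in acinar-like, 0.767 in fibroblast-like and 1.26 in ionocyte-like nuclei. Idh3b had a saline to non-irradiated ratio of 1.15 in acinar-like and 0.79 in duct-like nuclei.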

How the results depend on the processing

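No paired analysis was possible because single libraries, 1 a group, leave nothing to pair. Nor could a replicate be left out. Depth limits Idh3a, Fh1 and Mdh2 most, and all genes in the duct-like nuclei of the pilocarpine library. Of 66 recomputed sums of the 9 genes, 53 stayed within counting error of their value, 11 moved and 2 reversed. Values here are log2 ratios. Subtraction of a free RNA estimate, the lowest level over immune, endothelial and fibroblast classes, gave 0.40 for acinar-like saline to non-irradiated (from -0.06) and -0.26 for acinar-like pilocarpine to saline (from 0.16). In duct-like nuclei it gave 0.14 for saline to non-irradiated (from -0.02) and -0.15 for pilocarpine to saline (from 0.04). Equal weight to acinar clusters gave -0.004 for saline to non-irradiated and 0.17 for pilocarpine to non-irradiated (from 0.10); it could not be run for duct-like nuclei, which were 1 cluster. Acinar-like pilocarpine to saline moved to 0.10 with a minimum of 1000 genes, 0.11 with median-of-ratios size factors and 0.105 with TMM factors. It moved to 0.089 when the cluster with acinar and duct markers was counted as acinar-like, an alternative chosen after seeing the data. Clustering each library alone gave -0.16 for duct-like saline to non-irradiated and -0.22 for duct-like pilocarpine to non-irradiated (from 0.02), which was 0.21 with a minimum of 1000 genes. Of 607 values for single genes and medians, 557 stayed, 45 moved and 5 reversed. After free RNA subtraction, acinar-like saline to non-irradiated was 1.06 for Cs and 0.30 for Ogdh, and pilocarpine to saline was -0.62 for Ogdh. The last was -0.001 with the added cluster, and with clusters weighted equally Idh3a was at -0.094 for acinar-like pilocarpine to saline. The cause of these changes was not tested. Idh3b in acinar-like nuclei stayed above 1 in each of the 12 settings run, with ratios of 1.1 to 1.3 for saline to non-irradiated, 1.17 to 1.35 for pilocarpine to saline and 1.39 to 1.7 for pilocarpine to non-irradiated.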
